A study of Mus musculus with 6 samples.

Results

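Amino acid transporter genes of mouse macrophages are described here: the genes whose symbols place them in the solute carrier families Slc1, Slc7, Slc36, Slc38 and Slc43. That rule takes 40 of the 52550 genes in the deposited table and leaves out 3 further Slc7 genes, which are not analysed here. Of the 40 entries, 3 (Slc7a6os, Slc36a1os and Slc36a3os) are named after the opposite strand of a carrier gene and are not carriers themselves. RNA was sequenced from bone marrow-derived macrophages, that is, marrow cells of C57BL/6 mice kept for 7 days in 25 ng/ml of the growth factor M-CSF. To these was given either culture medium from apoptotic chondrocytes (AC CM, 3 samples) or culture medium from normal chondrocytes (C CM, 3 samples); macrophages without such medium were not analysed here. The labels do not say how apoptosis was brought about, how long the medium was applied, or which samples of a group stem from different mice, so the p-values speak to spread among these samples, possibly only technical.

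Amino acids cross membranes through carriers that differ in their substrates and in what drives them. Slc1 carriers move glutamate or small neutral amino acids with sodium. Slc7 carriers either move cationic amino acids on their own or work as light chains that need a heavy chain, Slc3a1 or Slc3a2, to reach the membrane. Slc38 carriers are mostly sodium-coupled importers of glutamine and other small neutral amino acids, Slc36 carriers are coupled to protons and several sit on lysosomes, and Slc43a1 and Slc43a2 let large neutral amino acids pass down their gradient. In macrophages these carriers feed protein synthesis, glutamine and arginine metabolism, and the lysosomal sensing of amino acids by the kinase complex mTORC1.

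Counts summed to between 70802852 and 80105872 in the AC CM libraries and to between 65630784 and 68852308 in the C CM libraries. The macrophage genes Adgre1 and Csf1r were high in every library, at 1943 and 1944 CPM or more (counts scaled to a common library size). Csf1r was lower after AC CM, at 1944 to 2110 against 3217 to 3391 CPM. Adgre1 overlapped, at 1943 to 1997 against 1995 to 2446 CPM. The sum of 12 macrophage genes lay at 20858 to 21761 after AC CM against 21700.5 to 23718.5 CPM after C CM. Genes of hepatocytes, a cell type that the labels do not mention, stood apart: 16 of them summed to 79.2, 685 and 1531 CPM in AC CM replicates 1, 2 and 3, against 90.1, 42.0 and 40.3 CPM in C CM replicates 1, 2 and 3. None of the 16 was at 0 everywhere, and the albumin gene Alb reached 971 CPM. C CM replicate 1 also stood apart within its group: its counts differed from those of C CM replicates 2 and 3 by a chi-square per gene of 57.1 and 58.5, against 25.4 between C CM replicates 2 and 3 and 28.2 to 34.8 among the AC CM libraries. Marker sums of several other bone marrow cell types were lower after AC CM. For 12 neutrophil genes they were 197 to 212 against 902 to 1049 CPM. Those of 10 monocyte genes were 312 to 350 against 789 to 1048 CPM. For 10 dendritic cell genes they were 15.3 to 17.3 against 60.0 to 72.3 CPM. Those of 12 lymphocyte genes were 29.9 to 34.2 against 172 to 197 CPM. Sums of 10 erythroid genes overlapped, at 8.01 to 11.7 after AC CM against 9.47 to 13.6 CPM after C CM. The sum of 10 fibroblast genes was also lower, at 3548 to 3639 against 4437 to 5453 CPM, and that of 12 chondrocyte genes lay at 50.7 to 54.7 against 42.4 to 52.7 CPM. In bulk samples, fewer cells of a type and less RNA of these genes per cell, macrophages included, cannot be told apart. The part of these cells in the results below was not tested.

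Of the 40 genes, 26 had enough counts to be tested across the whole table with edgeR's quasi-likelihood test. At a Benjamini-Hochberg adjusted p under 0.05 over all 17863 genes tested, 2 rose after AC CM (Slc7a8 and Slc38a1), 4 fell (Slc43a2, Slc1a3, Slc1a5 and Slc38a9) and 20 did not pass. The 6 called genes are 23.1% of those tested, and 26.5% of all genes tested were called, so the share of transporter genes called is near the background. Higher calls made up 7.69% of the tested transporter genes against 13.3% of all genes, and lower calls 15.4% against 13.3%. The groups did not overlap for 12 of the 26 genes (46.2%), and for 44.7% of all genes; AC CM was above in 7 (22.6% of all genes) and below in 5 (22.1% of all genes). The median log2 fold change was 0.10, against -0.00 over all genes tested. The number of higher calls was 6 without C CM replicate 1 and 1 with both AC CM replicates 2 and 3 removed. Lower calls numbered 2 without AC CM replicate 2, without AC CM replicate 3 or without C CM replicate 3, and 1 with AC CM replicates 2 and 3 left out. Over all genes, 4741 were called, 3158 without AC CM replicate 3 and 1274 with AC CM replicates 2 and 3 left out. That last fit takes the spread of the single AC CM library to be that of C CM.

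**Figure D1:**
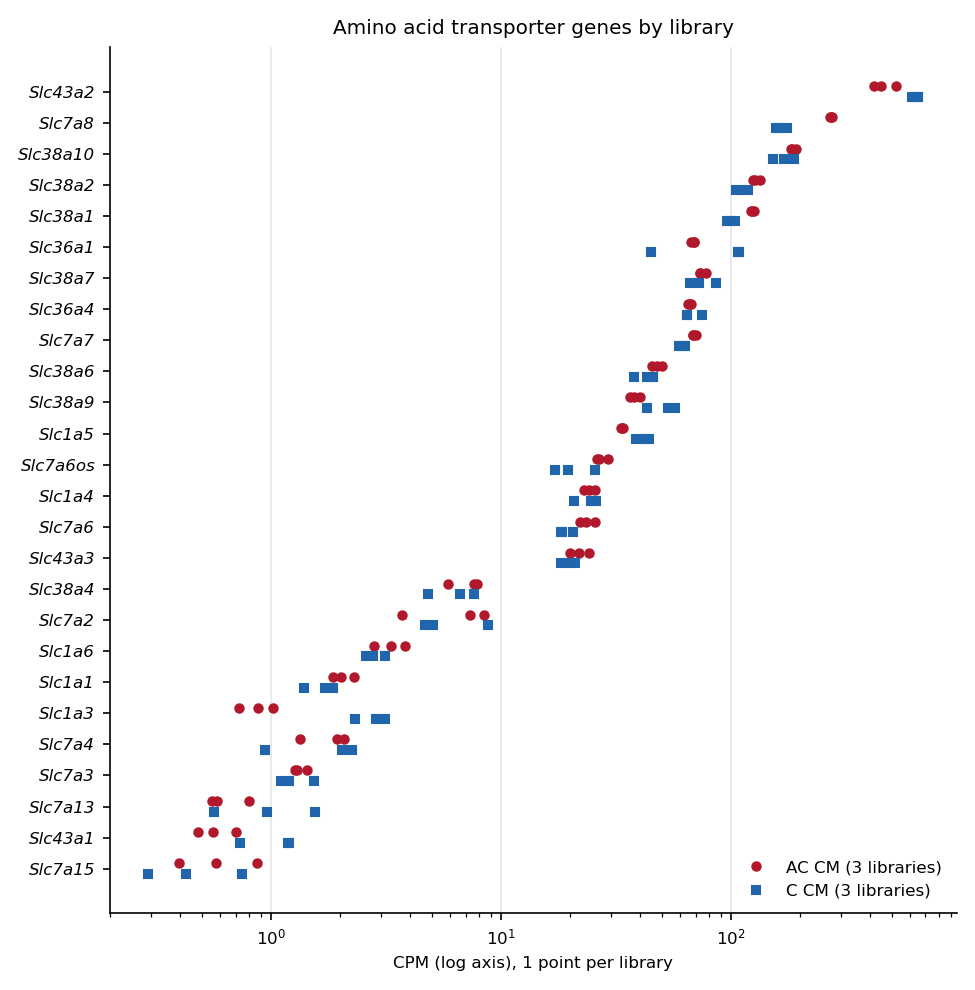
Level of each of the 26 tested transporter genes in CPM on a log axis, with 1 point per library, AC CM as circles above C CM as squares. Slc43a2 and Slc7a8 have the highest levels. The AC CM and C CM points do not overlap for 12 of the 26 genes (46.2%), against 44.7% of all genes tested. The called genes Slc7a8, Slc38a1, Slc43a2, Slc1a3, Slc1a5 and Slc38a9 are among these 12.

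Divided by the exon length of each gene, levels were led by the same 5 carriers in both groups, but the order of the first 2 differed. Slc7a8 had 54.6, 55.1 and 54.0 CPM per kb in AC CM replicates 1, 2 and 3, against 32.5, 35.0 and 31.3 CPM per kb in C CM replicates 1, 2 and 3. Slc43a2 had 44.9, 51.8 and 41.8 CPM per kb after AC CM, against 64.5, 65.0 and 61.2 CPM per kb after C CM. Slc7a8 was therefore above Slc43a2 in all 3 AC CM libraries and below it in all 3 C CM libraries, with no overlap between these genes in either group. Of the length-scaled level summed over the 40 genes, Slc7a8 held 21.1% after AC CM and 13.3% after C CM, and Slc43a2 held 17.9% after AC CM and 25.7% after C CM. Next in both groups came Slc38a10, at 29.0 CPM per kb after AC CM and 26.5 after C CM, then Slc7a7 at 20.9 and 18.5 CPM per kb and the lysosomal carrier Slc38a7 at 18.1 and 18.1 CPM per kb. These lengths count every annotated exon base in GENCODE M21, so a gene of which these cells use a short transcript is set too low.

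Among the Slc7 light chains, 1 of 5 tested rose and 4 did not pass. Slc7a8 (ENSMUSG00000022180.6, GRCm38 chromosome 14, 54722216 to 54781886, minus strand) encodes LAT2, which exchanges neutral amino acids in complex with Slc3a2. It had 273, 276 and 270.0 CPM in AC CM replicates 1, 2 and 3, against 163, 175 and 157 CPM in C CM replicates 1, 2 and 3. All AC CM libraries were above all C CM libraries, and the AC CM values lay close together. Means were 273 ± 2.83 CPM after AC CM and 165 ± 9.40 CPM after C CM (SD, n = 3 each), a ratio of 1.66 or 0.73 on the log2 scale (SE 0.06; adjusted p = 7.63e-05), and the gene was called under each of the 15 alternatives run, with log2 fold changes between 0.69 and 0.77. Slc7a6 and Slc7a7 encode the light chains y+LAT2 and y+LAT1, which export cationic amino acids in exchange for neutral ones and sodium. Loss of the human Slc7a7 gene causes lysinuric protein intolerance, a disease in which macrophages are affected. Slc7a7 had 70.7, 68.3 and 68.4 CPM after AC CM, against 63.3, 61.2 and 59.1 CPM after C CM (log2 fold change 0.18, SE 0.07, adjusted p = 0.0838). Slc7a6 had 25.5, 23.3 and 22.01 CPM after AC CM, against 20.5, 18.3 and 18.3 CPM after C CM (log2 fold change 0.31, SE 0.10, adjusted p = 0.0531). Their groups did not overlap, but neither gene passed the threshold. Without C CM replicate 1 both did, at adjusted p = 0.0243 for Slc7a7 and 0.0232 for Slc7a6. Slc7a6 also passed with DESeq2 (0.0255), with a filter of 1 CPM in 3 samples (0.0495) and with counts divided by 4 (0.0484). Slc7a7 shares 232 exon bases with Oxa1l on the opposite strand, and whether counting used strand is not given in the sources used here. Slc7a13 and Slc7a15, at 0.645 and 0.614 CPM after AC CM against 1.02 and 0.489 CPM after C CM, did not pass (log2 fold changes -0.66 and 0.33, adjusted p = 0.283 and 0.675).

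The heavy chain Slc3a2, the partner of Slc7a8, Slc7a6 and Slc7a7, also rose. It had 345, 293 and 305 CPM in AC CM replicates 1, 2 and 3, against 252, 237 and 217 CPM in C CM replicates 1, 2 and 3 (log2 fold change 0.42, SE 0.08, adjusted p = 0.00613). All AC CM libraries lay above all C CM libraries. The other heavy chain, Slc3a1, averaged 2.76 CPM after AC CM and 2.62 CPM after C CM and did not pass (log2 fold change 0.07, SE 0.20, adjusted p = 0.823).

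Promoter sequences are printed for the called gene of each direction with the highest level, and for 2 genes with matches to the letters searched. The windows come from RefSeq on GRCm38.p6, which covers 30 of the 40 genes, and are cut to 160 bases, 150 before the transcription start and 10 from it. Capitals mark matches to TGATGNAA, the core of the element bound by C/EBP and ATF4 dimers in amino acid starvation, or to CACGTG, the E-box read by TFEB, TFE3 and other factors, each searched on both strands of the full windows. Neither Slc7a8 nor Slc43a2 has a match in its window, so these are in lower case throughout.
Slc7a8, chr14:54781877-54782036, minus strand: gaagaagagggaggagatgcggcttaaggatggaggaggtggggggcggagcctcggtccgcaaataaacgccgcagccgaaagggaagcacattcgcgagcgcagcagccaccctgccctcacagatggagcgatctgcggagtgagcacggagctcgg
Slc43a2, chr11:75531544-75531703, plus strand: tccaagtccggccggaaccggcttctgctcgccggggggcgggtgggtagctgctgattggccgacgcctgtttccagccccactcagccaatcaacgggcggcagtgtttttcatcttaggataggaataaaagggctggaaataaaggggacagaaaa
Slc7a7, chr14:54417935-54418094, minus strand: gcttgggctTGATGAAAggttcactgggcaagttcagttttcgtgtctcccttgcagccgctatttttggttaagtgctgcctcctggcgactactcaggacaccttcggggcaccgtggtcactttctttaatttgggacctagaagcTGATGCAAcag
Slc36a1, chr11:55204190-55204349, plus strand: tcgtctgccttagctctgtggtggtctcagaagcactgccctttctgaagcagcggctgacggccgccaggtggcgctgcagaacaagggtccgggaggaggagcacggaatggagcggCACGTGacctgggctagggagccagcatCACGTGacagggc
The Slc7a7 start used here lies 164 bases before the gene's start in the deposited table. Of the 40 windows of these genes, 3 (7.50%) hold TGATGNAA, those of Slc1a4 and Slc7a7, against 3.97% of all 32851 windows. CACGTG was found in 7 windows (17.5%), those of Slc1a6, Slc1a7, Slc36a1, Slc38a5, Slc38a7, Slc43a1 and Slc7a14, against 7.15% of all windows. None of these 9 genes was called, and 3 of them (Slc1a7, Slc38a5 and Slc7a14) were not tested. A match is a stretch of letters and does not show that a factor binds there.

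The cationic carriers of Slc7 did not pass in any case. Slc7a2, which encodes CAT2, the arginine carrier that supplies nitric oxide synthase and arginase in activated macrophages, averaged 6.47 ± 2.45 CPM after AC CM and 6.17 ± 2.27 CPM after C CM (SD, n = 3 each). Its libraries ranged from 3.72 to 8.40 CPM after AC CM and from 4.66 to 8.78 CPM after C CM, so the groups overlapped throughout. It shares 635 exon bases with Gm26584 on the opposite strand. Slc7a3 and Slc7a4 averaged 1.33 and 1.78 CPM after AC CM and 1.28 and 1.74 CPM after C CM, with log2 fold changes of 0.06 and 0.03. Slc7a4 shares 554 exon bases with P2rx6 on the opposite strand, which had 439 counts summed over the libraries against 757 for Slc7a4.

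**Figure D2:**
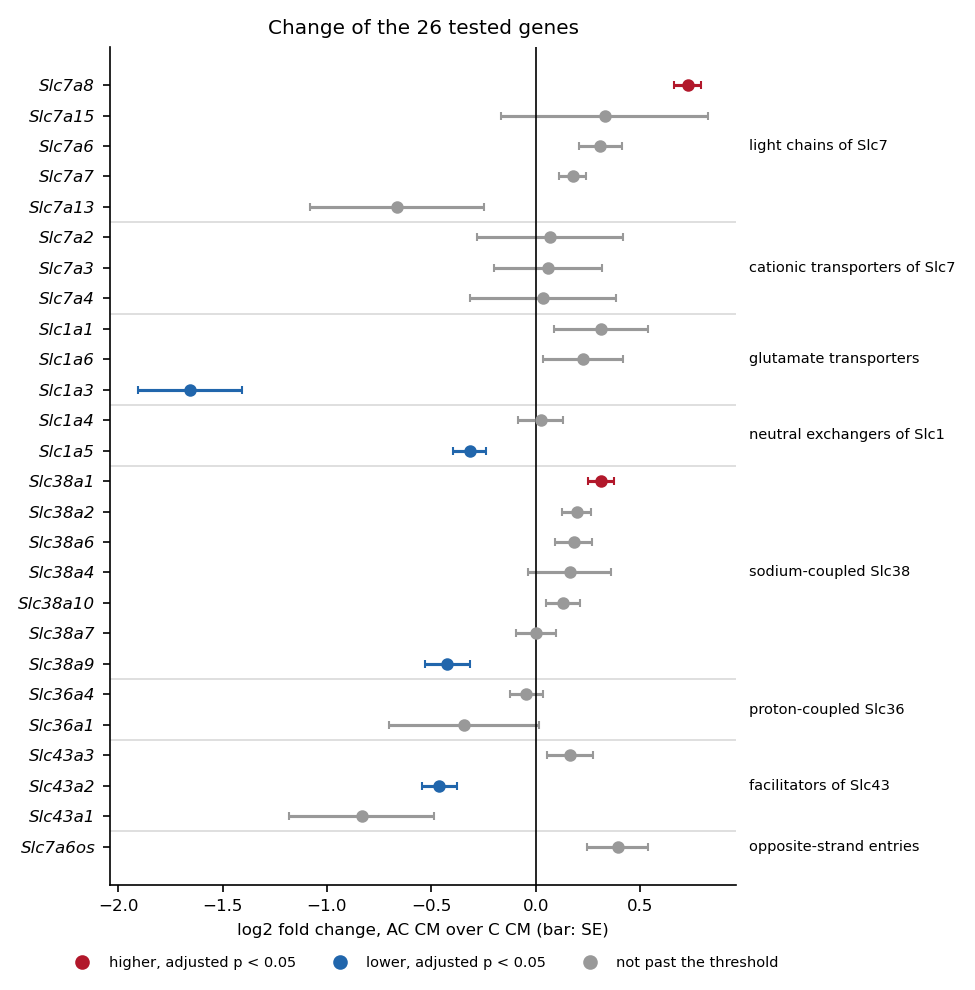
Log2 fold change of AC CM over C CM for the 26 tested genes, grouped by carrier type, with bars for the standard error. Slc7a8 at 0.73 and Slc38a1 at 0.31 are the higher calls, and Slc1a3 at -1.66 is the lowest value of the 4 lower calls.

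Of the Slc1 glutamate carriers, 1 of 3 tested fell and 2 did not pass. Slc1a3 (ENSMUSG00000005360.14, chromosome 15, 8634124 to 8710764, minus strand) encodes GLAST, a sodium-driven glutamate importer best known from astrocytes. It had 0.724, 1.02 and 0.878 CPM in AC CM replicates 1, 2 and 3, against 3.11, 2.32 and 2.85 CPM in C CM replicates 1, 2 and 3, which rest on 51, 79 and 70 counts after AC CM and 204, 159 and 191 counts after C CM. No AC CM library reached any C CM library. The gene was 3.15-fold lower after AC CM, at -1.66 on the log2 scale (SE 0.25; adjusted p = 0.00137), and was called under each of the 15 alternatives. Slc1a1 and Slc1a6, which encode the glutamate carriers EAAC1 and EAAT4, averaged 2.06 and 3.31 CPM after AC CM and 1.66 and 2.83 CPM after C CM. Neither passed (log2 fold changes 0.31 and 0.23, adjusted p = 0.354 and 0.433), and Slc1a1 shares 2631 exon bases with 4430402I18Rik on the opposite strand. Slc1a2 had 8, 4 and 15 counts after AC CM and 0, 4 and 4 counts after C CM, too few to test.

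Of the 2 neutral exchangers of the same family, 1 fell and 1 did not pass. Slc1a5 (ENSMUSG00000001918.17, chromosome 7, 16781340 to 16798274, plus strand) encodes ASCT2, which imports glutamine in exchange for other neutral amino acids. It had 33.3, 33.9 and 33.5 CPM in AC CM replicates 1, 2 and 3, against 44.1, 38.7 and 42.5 CPM in C CM replicates 1, 2 and 3. AC CM libraries were all below C CM libraries, at -0.32 on the log2 scale (SE 0.08; adjusted p = 0.0179). The call was lost without AC CM replicate 1 (adjusted p = 0.0672), AC CM replicate 2 (0.0615), AC CM replicate 3 (0.0729) or C CM replicate 3 (0.0511). It was also lost with both AC CM replicates 2 and 3 left out (-0.33 on the log2 scale). The log2 fold change stayed between -0.37 and -0.27 under every alternative run. Slc1a4, its nearest relative, averaged 24.2 CPM after AC CM and 23.8 CPM after C CM (log2 fold change 0.02, SE 0.11, adjusted p = 0.902). The difference between these genes was not tested.

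Among the Slc38 carriers, 1 of 7 tested rose, 1 fell and 5 did not pass. Slc38a1 (ENSMUSG00000023169.14, chromosome 15, 96571418 to 96642913, minus strand) encodes SNAT1, a sodium-coupled importer of glutamine and alanine. It had 123, 123 and 126 CPM in AC CM replicates 1, 2 and 3, against 95.6, 99.2 and 104 CPM in C CM replicates 1, 2 and 3. The groups did not overlap, at 0.31 on the log2 scale (SE 0.06; adjusted p = 0.00658). Leaving out any 1 library kept the call; leaving out both AC CM replicates 2 and 3 ended it (0.29 on the log2 scale, adjusted p = 0.256). Its neighbour Slc38a2, which encodes the starvation-induced importer SNAT2, had 124, 127 and 133 CPM after AC CM, against 105, 112 and 119 CPM after C CM. It did not pass (log2 fold change 0.20, SE 0.07, adjusted p = 0.0679), though it did without C CM replicate 3 (adjusted p = 0.0475). Slc38a4, the third carrier gene in this stretch of chromosome 15, averaged 7.11 CPM after AC CM and 6.35 CPM after C CM (log2 fold change 0.16).

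Slc38a9 (ENSMUSG00000047789.5, chromosome 13, 112660751 to 112738749, plus strand) encodes a lysosomal arginine sensor that signals to mTORC1 and lets leucine and other amino acids leave the lysosome. It had 40.2, 37.9 and 36.2 CPM in AC CM replicates 1, 2 and 3, against 43.3, 53.2 and 56.8 CPM in C CM replicates 1, 2 and 3. AC CM libraries were all lower, and C CM replicate 1 was the closest of its group to them (log2 fold change -0.42, SE 0.11, adjusted p = 0.0185). The call was lost without AC CM replicate 2 (adjusted p = 0.0657), AC CM replicate 3 (0.0779), C CM replicate 2 (0.0636) or C CM replicate 3 (0.0606). It was also lost with both AC CM replicates 2 and 3 left out (-0.35 on the log2 scale). Slc38a7, which carries glutamine and asparagine out of lysosomes, averaged 74.8 ± 2.69 CPM after AC CM and 74.8 ± 9.94 CPM after C CM (log2 fold change 0.00, SE 0.10). Slc38a6 and Slc38a10 averaged 47.8 and 186 CPM after AC CM and 42.1 and 170.2 CPM after C CM, with log2 fold changes of 0.18 and 0.13 that did not pass. Without C CM replicate 1, Slc38a10 was at 0.21 and passed (adjusted p = 0.0307). It shares 367 exon bases with Gm11769 on the opposite strand.

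Slc38a3, which encodes the glutamine carrier SNAT3 of liver, kidney and brain, was counted 7, 235 and 571 times in AC CM replicates 1, 2 and 3, against 0 times in each C CM library. That order of the libraries is the order of the hepatocyte sums given above for AC CM, and their part in it was not tested. Because AC CM replicate 1 had so few counts, the filter on low counts left the gene untested. Relative to a floor of 3 counts per C CM library, the AC CM mean was at least 76.6-fold higher, but AC CM replicate 1 alone was only at least 2.22-fold above that floor. With no filter on low counts, the edgeR test gave an adjusted p = 0.261, in a fit that called 16.2% of its genes. Without AC CM replicate 1 the gene was tested and passed (adjusted p = 8.33e-04). The authors' deposited table gives an adjusted p of 2.41e-04 for this gene and calls 18.7% of the 27127 genes to which it gives an adjusted p, at a threshold of 0.05.

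**Figure D3:**
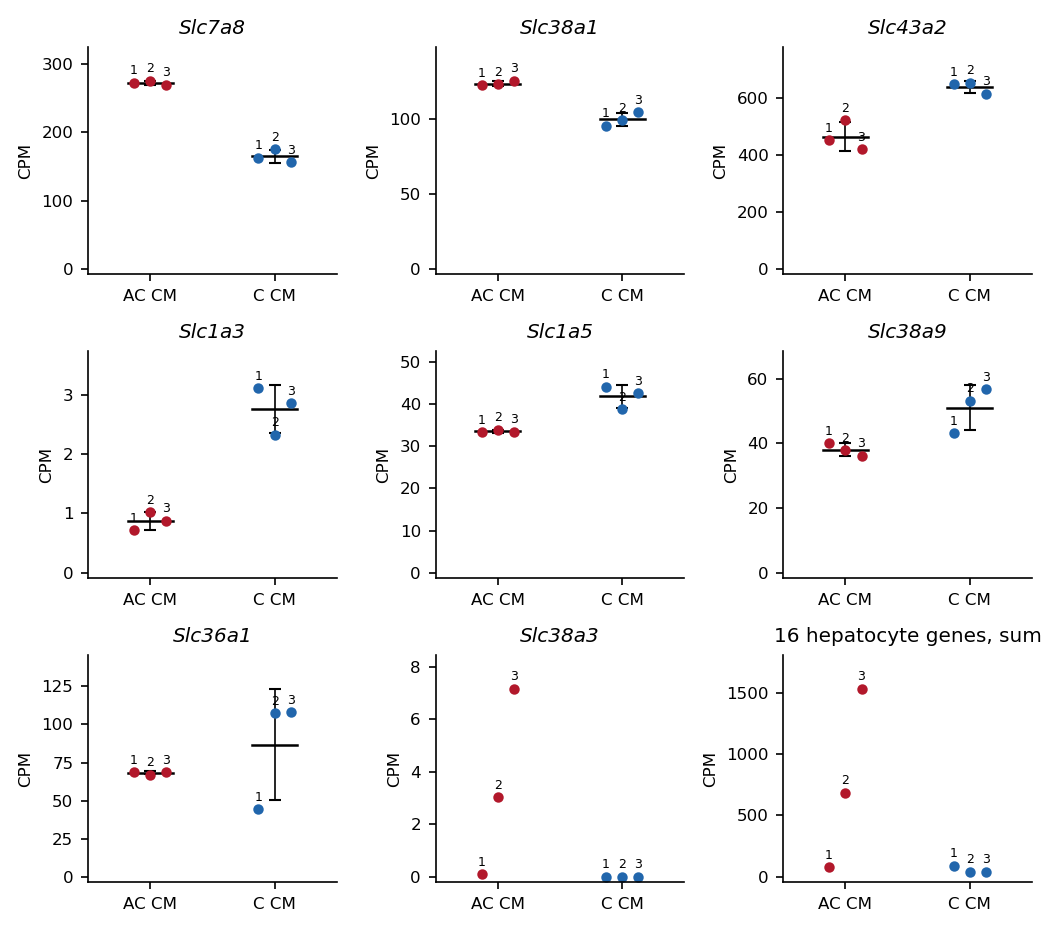
CPM by library, with the replicate number beside each point, for the 6 called genes, Slc36a1 and Slc38a3, and the sum of 16 hepatocyte genes; AC CM is left of C CM, lines mark the mean and bars the SD (n = 3), left out for the last 2 panels. Slc36a1 is low in C CM replicate 1 alone, and Slc38a3 is highest in AC CM replicate 3, where the hepatocyte sum is 1531 CPM.

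Neither tested Slc36 gene passed. Slc36a1 (ENSMUSG00000020261.15, chromosome 11, 55204350 to 55236330, plus strand) encodes PAT1, a proton-coupled carrier of small amino acids on lysosomes and at the cell surface. It had 68.9, 67.2 and 68.7 CPM in AC CM replicates 1, 2 and 3, against 44.7, 107 and 108 CPM in C CM replicates 1, 2 and 3. The AC CM libraries lay together between the C CM libraries, since C CM replicate 1 was at 41.5% of the mean of C CM replicates 2 and 3. With all libraries the log2 fold change was -0.34 (SE 0.36, adjusted p = 0.546). Without C CM replicate 1 it was -0.65 and passed (adjusted p = 6.06e-05). Slc36a4, which encodes the related carrier PAT4, averaged 65.9 ± 1.01 CPM after AC CM and 68.0 ± 5.98 CPM after C CM (log2 fold change -0.05, SE 0.08).

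Of the Slc43 genes, 1 of 3 fell. Slc43a2 (ENSMUSG00000038178.16, chromosome 11, 75531694 to 75577575, plus strand) encodes LAT4, a facilitator of branched-chain amino acids, methionine and phenylalanine. It had 451, 521 and 419 CPM in AC CM replicates 1, 2 and 3, against 648, 653 and 614 CPM in C CM replicates 1, 2 and 3. The groups did not overlap, and the AC CM libraries spread more widely. It was 1.38-fold lower after AC CM, at -0.46 on the log2 scale (SE 0.08; adjusted p = 0.00370). Leaving out any 1 library kept the call; leaving out both AC CM replicates 2 and 3 ended it (-0.51 on the log2 scale, adjusted p = 0.0549). Slc43a2 shares 922 exon bases with Gm45606 on the opposite strand, whose counts amounted to 4.58% of those of Slc43a2. Slc43a1, which encodes the related facilitator LAT3, averaged 0.580 CPM after AC CM and 1.04 CPM after C CM (log2 fold change -0.83, SE 0.35) and did not pass (adjusted p = 0.113). Slc43a3, a neighbour of Slc43a1 whose human protein carries purine bases and not amino acids, averaged 21.9 CPM after AC CM and 19.6 CPM after C CM (log2 fold change 0.16).

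The remaining entries had little to compare. Slc7a6os, a protein-coding neighbour of Slc7a6, averaged 27.2 CPM after AC CM and 20.8 CPM after C CM (log2 fold change 0.39, adjusted p = 0.0787), and passed with DESeq2 (adjusted p = 0.0389) and without C CM replicate 1 (0.57 on the log2 scale, adjusted p = 0.00419). Of the 14 genes not tested, 7 were at 0 in every library: Slc7a9, Slc7a12, Slc38a5, Slc38a8, Slc38a11, Slc36a3 and Slc36a1os. Beside Slc38a3, the other 6 (Slc1a2, Slc1a7, Slc7a10, Slc7a14, Slc36a2 and Slc36a3os) had at most 15 counts in a library. At the values nearest the threshold, the called genes reached an adjusted p of 0.0185 and those not called began at 0.0531.

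Related genes were read from the same fit in 4 lists. Of 26 tested genes for other amino acid carriers and heavy chains, 6 rose, 4 fell and 16 did not pass, with a median log2 fold change of 0.03. These calls are 38.5% of the list, against 26.5% of all genes. Besides Slc3a2, the aromatic amino acid carrier Slc16a10 rose, at 200.2, 191 and 199.5 CPM in AC CM replicates 1, 2 and 3, against 99.3, 110.1 and 95.8 CPM in C CM replicates 1, 2 and 3 (log2 fold change 0.95, SE 0.07, adjusted p = 3.34e-05). The libraries of each group lay close together and far from the other group. Slc25a13, the mitochondrial aspartate and glutamate exchanger, rose by 0.86 (SE 0.13), and Sfxn1, which brings serine into mitochondria, by 0.48 (SE 0.08). The peptide carrier gene Slc15a2 was at -1.98 (SE 0.21), at 2.66 CPM after AC CM and 10.5 CPM after C CM, and Slc15a3, a lysosomal carrier of histidine and peptides, at -0.39 (SE 0.07). With AC CM replicates 2 and 3 left out, 4 genes of the list were called.

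**Figure D4:**
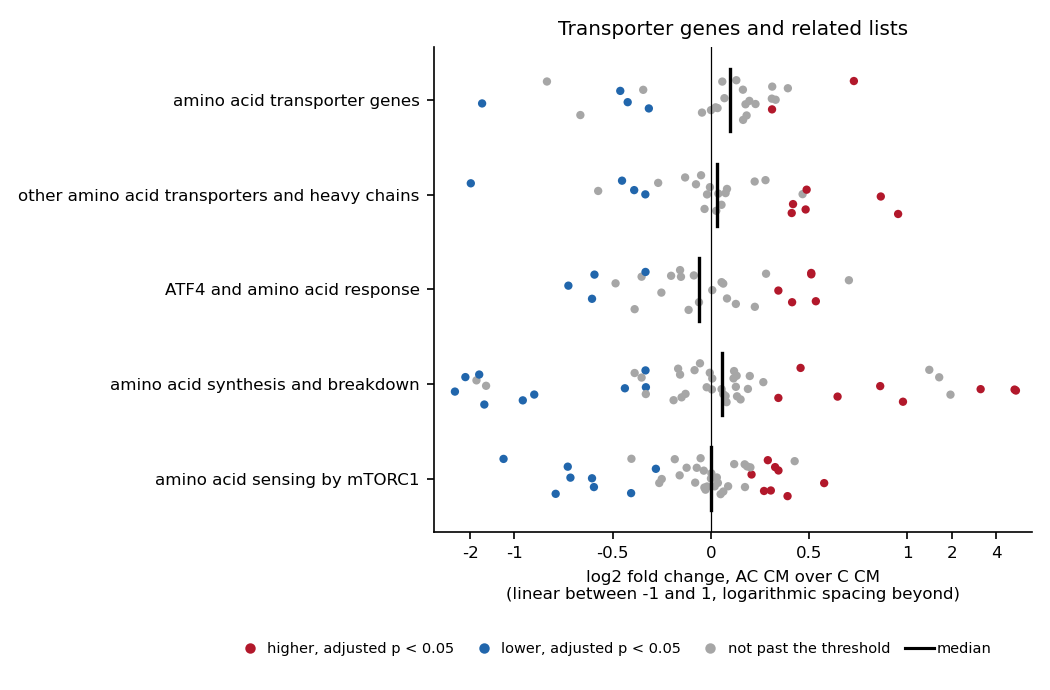
Log2 fold change of AC CM over C CM for the transporter genes and the genes of 4 related lists, 1 point per tested gene, with the median of each list as a line; genes at 0 in all C CM libraries are not drawn. The medians lie between -0.06 and 0.10, with higher and lower calls in every list.

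Of 27 tested genes of the ATF4 and amino acid response, 5 rose, 4 fell and 18 did not pass (median log2 fold change -0.06). Cells use this response when amino acids run short. The share called was 33.3%, against 26.5% of all genes tested. Atf4 itself had 176, 173 and 183 CPM in AC CM replicates 1, 2 and 3, against 136, 131 and 132 CPM in C CM replicates 1, 2 and 3 (log2 fold change 0.41, SE 0.06, adjusted p = 0.00114). All AC CM libraries were higher. The stress protein gene Nupr1 rose by 0.53, the mitochondrial folate enzyme gene Mthfd2 by 0.51 and the asparagine synthetase gene Asns by 0.34. The mitochondrial enzyme gene Pck2 was at -0.73 and the leucine sensor gene Sesn2 at -0.60, both called lower. The Asns call was lost without AC CM replicate 1 (adjusted p = 0.0870), AC CM replicate 3 (0.0674) or C CM replicate 2 (0.0602). Without AC CM replicate 1, or without AC CM replicate 3, 5 genes of the list were called. With both AC CM replicates 2 and 3 removed, all 9 calls were lost, Atf4 (adjusted p = 0.105), Nupr1 (0.0555), Mthfd2 (0.0851), Pck2 (0.0616) and Sesn2 (0.123) among them. The 1 gene then called, Ppp1r15a (lower, adjusted p = 0.00461), had not been called with all libraries.

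Of 43 genes of amino acid sensing by mTORC1, 8 rose, 8 fell and 27 did not pass (median log2 fold change 0.00). Calls made up 37.2% of this list, against 26.5% of all genes tested. All 3 sestrin genes, whose products restrain mTORC1 and of which Sesn2 senses leucine, fell after AC CM. Sesn1 had 240.4, 248 and 240.1 CPM in AC CM replicates 1, 2 and 3, against 392, 445 and 423 CPM in C CM replicates 1, 2 and 3 (log2 fold change -0.79, SE 0.07, adjusted p = 5.75e-05), with no overlap. Sesn3 was at -0.73 (SE 0.09), beside Sesn2 at -0.60. Deptor, an inhibitory partner of mTOR, averaged 18.5 ± 0.358 CPM after AC CM and 42.0 ± 1.78 CPM after C CM (SD, n = 3 each; log2 fold change -1.18, SE 0.08, adjusted p = 1.93e-05). Fnip2, a partner of folliculin, rose by 0.34, and Lamtor3, a subunit of the lysosomal scaffold that anchors mTORC1, by 0.39. Without AC CM replicate 1, 10 genes of the list were called. With both AC CM replicates 2 and 3 removed, 0 were called higher and 5 lower: Deptor, Sesn1, Sesn3 and Tfeb, and also Flcn, which was not called with all libraries. The calls of Sesn2 (adjusted p = 0.123), Fnip2 (0.192) and Lamtor3 (0.159) were among those lost.

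Of 52 tested genes of amino acid synthesis and breakdown, 11 rose, 9 fell and 32 did not pass. The share called was 38.5%, against 26.5% of all genes tested. Their median log2 fold change was 0.06, the same with genes at 0 after C CM set to their bound. Glul, which makes glutamine from glutamate, had 222, 239.8 and 210.3 CPM in AC CM replicates 1, 2 and 3, against 415, 438 and 399.9 CPM in C CM replicates 1, 2 and 3 (log2 fold change -0.90, SE 0.07, adjusted p = 4.21e-05). The groups lay far apart. Bckdha, a subunit of the enzyme that breaks down branched-chain amino acids, was at -0.96 (SE 0.10). Mat2a, which makes S-adenosylmethionine, rose by 0.98 (SE 0.12), Gclc, the catalytic subunit for glutathione synthesis, by 0.86 (SE 0.11) and Gcsh, of the glycine cleavage system, by 0.64 (SE 0.09). The higher calls also included genes abundant in liver or at 0 after C CM, among them Hpd, a tyrosine-degrading enzyme gene, at 1.04, 2.21 and 2.11 CPM in AC CM replicates 1, 2 and 3 against 0 in all C CM libraries, and Gldc, Tat, Arg1 and Aspg, which were named after their values were seen. Gldc, Tat and Arg1 were lower in AC CM replicate 1 than in AC CM replicates 2 and 3, as the hepatocyte sum was, and their part in these calls was not tested. The calls of Arg1 and Tat were lost under 8 alternatives each, among them limma-voom (adjusted p = 0.133 and 0.0896). Without any 1 AC CM or C CM library, 14 to 20 genes of the list were called, and with AC CM replicates 2 and 3 left out 9 were, 3 higher and 6 lower. Of these 9, Kynu and Kmo, both lower, were not called with all libraries.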

How the data were processed

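RNA-seq gene counts of 3 AC CM and 3 C CM macrophage samples were analysed. The read counts are whole numbers per gene that the authors deposited without normalization. The deposited signal columns equal these counts divided by a constant per sample and were not used for tests. The authors' deposited log2 fold changes and p-values were used to give their result for 1 gene and the share of genes they call. The tools named are HISAT2 2.1.0, fastp 0.17.1, R 3.4.3 and DESeq2 1.18.1, per the submitters' processing notes. For counting, the program and use of strand were not given in the sources used here. Of the gene IDs matched to GENCODE M21, 95.2% had its GRCm38 coordinates.

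Genes were filtered with filterByExpr, scaled by TMM and tested with edgeR 4.0.16 (robust quasi-likelihood, group only) in R 4.3.3, with Benjamini-Hochberg adjustment over all genes tested. The standard error is the log2 fold change over the square root of its F statistic. CPM use the TMM-scaled library sizes. The alternatives were DESeq2 1.42.0, limma-voom (limma 3.58.1), other scalings and filters, and counts divided by 4 (low counts favour multiples of 4). They also included the replicate number as a block and libraries left out. The procedure was also run on simulated counts, with the same setting of spread for every gene and no library standing apart. That run cannot show how the procedure handles libraries that stand apart, as some do here. No pair of libraries within a group was 1 library deposited again.

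The members, lists and rules were chosen with earlier results of these data known. Every transporter gene is accounted for. Called members are given by library, and up to 6 called genes with the smallest p are named from each list, with Slc3a1, Slc3a2 and Atf4 in every case. A floor of 3 counts stands for 0 where a fold is given as a bound. Intervals of replicate spread cover these samples only.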

Additional observations from a re-analysis of the deposited data

How the results depend on the processing

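No transporter gene that was called, here or under any alternative, changed direction. Of the comparisons of single transporter genes under the alternatives, 12 lost a call and 10 gained one. Another 362 kept their side of the threshold without a change of sign larger than the standard error. The other 3, not called in either fit, did change sign by more than that, all with AC CM replicates 2 and 3 left out. They lay at -0.39 for Slc7a4, -0.30 for Slc7a15 and -0.12 for Slc38a4 on the log2 scale. With all libraries these genes were at 0.03, 0.33 and 0.16. With DESeq2, 4 transporter genes were called higher. With AC CM replicates 2 and 3 left out, 1274 of all genes, 1 transporter gene higher and 1 lower, 4 genes of other carriers and heavy chains, 1 of the ATF4 response, 9 of synthesis and breakdown and 5 of mTORC1 sensing were called, in a fit with fewer samples. These are not all among the calls made with all libraries. Leaving out each replicate in turn gave 3158 to 5023 calls over all genes, 2 to 6 transporter genes higher and 2 to 5 lower, 7 to 11 other carriers and heavy chains, 5 to 10 genes of the ATF4 response, 14 to 20 of synthesis and breakdown and 10 to 17 of mTORC1 sensing. The cause was not tested. Samples with the same replicate number showed little correlation in how they deviated from their group means (-0.08, 0.02 and 0.02). With means of 3 libraries, such values cannot show whether these samples share a mouse or batch. With the replicate block 4397 genes were called, 2 transporter genes higher and 4 lower. The 6 transporter entries with at most 15 counts in a library were left untested, and whether depth limited them was not tested.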
